A study of Rattus norvegicus with 12 samples.

Results

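Solute carriers are membrane proteins, named with the prefix Slc, that move small molecules across membranes. They were followed here by the mRNA level of 167 genes in rat tail tendon fascicles, thin bundles of collagen fibres with tenocytes in rows between them. A gene was taken when the platform annotation named it with an Slc family symbol and when its probe lay in the upper 50% of all probes by mean log2 intensity over the 12 arrays. The brightest probe stood for a gene with several. The array held 302 such probes for 292 genes, and 167 genes (57.2%) passed this brightness threshold, out of 7780 named genes that passed it. The other 125 genes were too dim by this rule and were not analysed with the members. A pair of the 167, Slc7a6os and Slc4a1ap, carry the name of a neighbouring or partner carrier and are not transporters, which leaves 165 transporter genes.

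The study addressed which genes of tenocytes respond to cyclic tension while the cells stay in the matrix. Total RNA came from isolated fascicles that were cyclically strained or left unstrained in vitro, for 1 h or 24 h, with 3 arrays in each of the 4 groups. The labels give no rat strain, age or treatment beyond this. They leave unsaid whether a group's samples are separate animals or cultures, so the p-values measure no more than the spread between the deposited samples, and that spread may be technical. Isolated fascicles keep their matrix but not their blood supply.

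Transporters of this superfamily set what a cell can take up, expel and exchange between its compartments. Heteromers of Slc3 and Slc7 proteins and the Slc1 and Slc38 families carry amino acids. Most Slc25 proteins sit in the inner mitochondrial membrane and exchange nucleotides, phosphate and metabolites. Slc39 proteins (ZIP) bring zinc and related metals into the cytosol, and Slc30 proteins (ZnT) move zinc out of it, some of them into the secretory pathway where matrix proteins are made. Slc35 proteins bring nucleotide sugars into the Golgi for the glycosylation of proteoglycans. Collagen-rich tendon is poorly vascularised, and tenocytes rely in part on glycolysis.

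Intensities were the deposited linear values, and differences are log2 fold changes with their standard errors from a limma fit over all 12 arrays and 11258 kept probes. A member is said to have risen or fallen only where its p, adjusted by Benjamini-Hochberg across these probes, was under 0.05. The deposited values keep a background: the lowest value on every array was 33.7 and the median 57.0. The threshold stood at a mean intensity of 56.2, so the dimmest members lie in the middle of all probes. Just inside it were Slc7a14 and Slc22a6, both at 56.4, and Slc9a5 at 56.5, and just outside it Slc25a2 at 56.1, Slc10a2 at 56.0 and Slc13a3 at 56.0. Over all probes, correlations within a group were 0.969 to 0.985. Levels of different probes are not set against each other.

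Tenocyte markers were bright, with mean intensities of 11500 for the collagen gene Col1a2, 9500 for Dcn (decorin), 3840 for Fmod (fibromodulin) and 2480 for Tnmd (tenomodulin). All 7 tenocyte markers with a named probe passed the threshold, while Scx, Mkx and Comp are not among the named probes used here. Of macrophage markers 9 of 10 passed, of nerve and Schwann cell markers 4 of 5, of skeletal muscle markers 4 of 8, of smooth muscle and pericyte markers 3 of 5, of adipocyte and of erythroid markers 2 of 5 each, and of endothelial markers 1 of 5. Between 1 h and 24 h, 3 of the 7 tenocyte markers fell in unstrained and 6 of 7 in strained fascicles. Of 9 macrophage markers, 5 fell and 1 rose in unstrained fascicles, and 5 fell in strained fascicles. Of all kept probes, 7.42% were called lower and 9.83% higher in unstrained fascicles, and 8.52% lower and 12.2% higher in strained fascicles. In such bulk samples, fewer cells of a type and less RNA per cell cannot be told apart.

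The promoter sequences of 4 members are shown because the results turn on these genes. Slc41a2 was the single member called for strain, Slc25a1 had the largest fold among carriers that rose in both culture time comparisons, and the amino acid carriers Slc7a5 and Slc38a1 fell together. Each sequence is the sense strand of the 250 bases before the annotated transcription start in RefSeq (rat build GRCr8), 5′ to 3′. Capitals mark matches, on either strand, to the motifs searched. The window of Slc41a2, at chr7:22271063-22271312 on the plus strand, holds none of the motifs, and the gene has 2 annotated starts, of which the most upstream was used. The windows of Slc25a1 at chr11:96559804-96560053 (plus strand), Slc7a5 at chr19:66872413-66872662 (minus strand) and Slc38a1 at chr7:129681402-129681651 (minus strand) each hold at least 1.
Slc41a2: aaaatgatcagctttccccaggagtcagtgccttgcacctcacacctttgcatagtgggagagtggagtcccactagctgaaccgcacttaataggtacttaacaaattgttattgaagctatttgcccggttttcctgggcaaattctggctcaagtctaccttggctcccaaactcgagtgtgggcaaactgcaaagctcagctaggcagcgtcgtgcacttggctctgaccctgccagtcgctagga
Slc25a1: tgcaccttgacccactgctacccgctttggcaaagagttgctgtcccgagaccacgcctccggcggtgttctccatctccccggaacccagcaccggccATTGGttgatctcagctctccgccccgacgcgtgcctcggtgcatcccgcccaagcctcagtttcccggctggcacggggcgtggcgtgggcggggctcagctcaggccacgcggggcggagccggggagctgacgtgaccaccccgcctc
Slc7a5: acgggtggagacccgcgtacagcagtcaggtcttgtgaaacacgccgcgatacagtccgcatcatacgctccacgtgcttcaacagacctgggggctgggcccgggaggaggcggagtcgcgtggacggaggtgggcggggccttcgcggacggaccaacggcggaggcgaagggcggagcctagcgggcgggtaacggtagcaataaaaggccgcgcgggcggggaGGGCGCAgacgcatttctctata
Slc38a1: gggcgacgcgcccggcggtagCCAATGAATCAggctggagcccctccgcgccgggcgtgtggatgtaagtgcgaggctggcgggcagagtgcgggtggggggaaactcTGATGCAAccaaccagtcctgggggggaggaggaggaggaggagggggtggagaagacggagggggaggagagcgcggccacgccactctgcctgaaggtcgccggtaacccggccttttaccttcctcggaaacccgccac

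The capitals in Slc25a1 are a CCAAT box on the opposite strand, 151 bases before the start. In Slc7a5 they are a metal response element (MRE, TGCACNC or TGCGCNC) on the opposite strand, 23 bases before the start. In Slc38a1 they are a CCAAT box and an AP-1 site (TGANTCA), 229 and 225 bases before the start and sharing 1 base, and a C/EBP-ATF response element (CARE, TGATGNAA), 142 bases before it. Of 27457 rat promoters of this length, 34.3% hold CCAAT, 21.2% the MRE, 6.33% the AP-1 site and 3.28% the CARE. Of the 137 members with a promoter in this table, 36.5% hold CCAAT, 31.4% the MRE, 8.76% the AP-1 site and 3.65% the CARE. The cAMP response element (CRE, TGACGTCA) was in 2.19% of the members' windows against 1.69% of all, and the sterol response element (SRE, TCACNCCAC) in 0.73% against 0.969%. A match is a description of letters, not a shown binding site.

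After 1 h of strain no transporter passed the test, as was the case for all probes (0.0% called). Of the 167 members, 8 (4.79%) had an unadjusted p under 0.05, against 4.9% of kept probes, and the smallest adjusted p among them was 0.727. The members' median difference was 0.00, with a range from -0.32 to 0.42. Strained and unstrained arrays did not overlap for 4 members that stood higher and 1 that stood lower, where the background was 3.91% and 3.9% of kept probes. A block on the replicate number within each time, which fits the paired arrays at 1 h, again called no member, at a background of 0.204%.

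The members nearest to a call at 1 h were of several kinds. Slc41a2, a magnesium transporter, read 125, 117 and 114 in unstrained and 171, 142 and 150.0 in strained fascicles, a difference of 0.37 ± 0.09 (adjusted p = 0.727, and 0.212 with the block). Its lowest strained array lay above its highest unstrained array. Slc9a2, a sodium-proton exchanger, had 54.8, 59.4 and 55.0 against 61.6, 68.6 and 75.1, a difference of 0.28 ± 0.09 (adjusted p = 0.964). Slc25a25, a mitochondrial carrier of ATP-magnesium and phosphate, stood at 0.27 ± 0.11, again without overlap, and Slc5a3, which takes up the osmolyte myo-inositol, at 0.42. Among those lower, Slc28a2, a sodium-driven nucleoside transporter, stood at -0.30 ± 0.13, Slc17a5, the lysosomal sialic acid exporter, at -0.27 ± 0.11 and Slc8a3, a sodium-calcium exchanger, at -0.23 ± 0.10. None of these passed.

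After 24 h of strain a single transporter changed. Slc41a2 read 74.5, 74.6 and 74.7 in the unstrained and 107, 111 and 95.6 in the strained fascicles, 1.40-fold higher, a log2 fold change of 0.48 ± 0.09 (adjusted p = 0.0225). The 3 unstrained arrays were nearly equal, and every strained array lay above them. The share of members called was 0.599%, against 2.34% of all kept probes, of which 0.968% were called higher and 1.37% lower. Of the 81 members in the upper 25% of all probes it was 1.23%, against 4.58%. At 1 h the gene stood higher by a like amount, and the difference of the 2 strain effects was 0.11 ± 0.13 (95% interval -0.18 to 0.40). The call was lost without any of the 3 unstrained arrays at 24 h or without strained replicate 1 or 2 at 24 h, with differences of 0.44 to 0.48 and adjusted p values of at most 0.114. After the 1st percentile of each array was subtracted as background, the difference was 0.93.

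The 167 members, with Slc41a2 among them, spread around 0 at 24 h of strain. Their median difference was -0.01, their range -0.94 to 0.61, and 23 of 167 (13.8%) had an unadjusted p under 0.05, against 13.2% of all kept probes. The groups did not overlap for 21 members that stood higher and 19 that stood lower, of 167, where the background was 11.2% and 9.34% of kept probes. By family, 0 of 22 mitochondrial, 0 of 19 amino acid, 0 of 3 glucose and 0 of 12 zinc carriers were called, with 5, 1, 0 and 4 members at an unadjusted p under 0.05 (22.7%, 5.26%, 0.0% and 33.3%, against the same 13.2%). The plot of strain effects by transport group shows the wider scatter at 24 h and its longest excursions among metal ion, amino acid and lactate carriers.

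**Figure D1:**
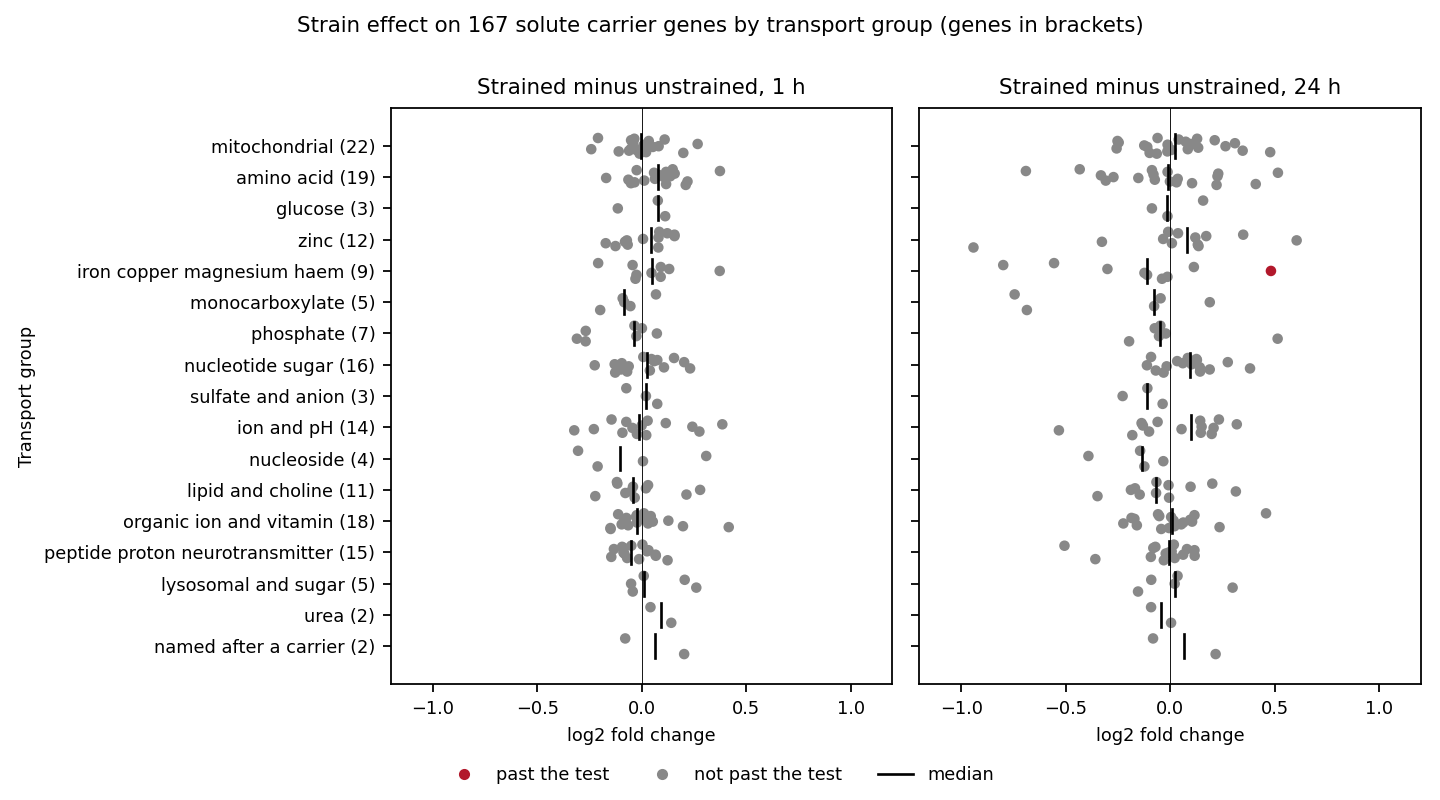
Log2 fold change of strained over unstrained fascicles (x axis) for each of the 167 solute carrier genes, in rows by transport group with the number of genes, at 1 h (left) and 24 h (right). Each point is a gene, the short vertical line is the group's median, and red marks the gene past the test, Slc41a2 at 24 h. Values run from -0.32 to 0.42 at 1 h and from -0.94 to 0.61 at 24 h.

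A pair of metal importers had the largest differences of any member at 24 h of strain, short of the test. Slc39a8 (ZIP8), which takes up zinc and manganese, read 176, 213 and 215 in unstrained and 104, 102 and 107 in strained fascicles, a difference of -0.94 ± 0.29 (adjusted p = 0.137). Slc11a2, the divalent metal transporter of iron uptake, had 420.0, 496 and 353 against 312, 213 and 210.0, a difference of -0.80 ± 0.26 (adjusted p = 0.160). In both genes all strained arrays were below all unstrained arrays. Slc39a14 (ZIP14), an importer of zinc, manganese and iron, had 84.5, 75.9 and 77.8 against 61.3, 57.2 and 72.3, again without overlap, a difference of -0.33 ± 0.10 (adjusted p = 0.158).

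The 1 h values of these importers did not part by strain. For Slc39a8 they were 173, 88.0 and 78.5 in unstrained and 173, 100.1 and 81.5 in strained fascicles, so replicate 1 stood high in both groups and the difference was 0.08 ± 0.29. For Slc11a2 the difference at 1 h was -0.04 ± 0.26 and for Slc39a14 -0.08 ± 0.10. The change of the strain effect from 1 h to 24 h was -1.02 ± 0.41 for Slc39a8 (adjusted p = 0.509), -0.76 ± 0.37 for Slc11a2 (adjusted p = 0.643) and -0.25 ± 0.15 for Slc39a14 (adjusted p = 0.729). No member passed this test of the difference, where 0.0799% of kept probes did. In it 10 members (5.99%) had an unadjusted p under 0.05, against 8.15% of kept probes, and the smallest adjusted p was 0.407, that of Slc9a2.

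None of the 12 zinc carriers was called at 24 h of strain. They had a median of 0.08, with 8 values above 0 and 4 below, against a median of 0.01 for all kept probes. Slc39a13 (ZIP13), which releases zinc from intracellular vesicles and whose loss in humans causes a form of Ehlers-Danlos syndrome, read 246, 155 and 282 in unstrained and 321, 326 and 364 in strained fascicles. The difference was 0.61 ± 0.21 (adjusted p = 0.183). Slc30a5 (ZnT5), which loads zinc into the early secretory pathway, had 280.1, 283 and 294 against 367, 356 and 369, a difference of 0.35 ± 0.11 (adjusted p = 0.136). The groups were apart for both, and neither passed. Slc30a7 (ZnT7), with a similar task in the Golgi, stood at 0.17 ± 0.12 (adjusted p = 0.670), and Slc39a7 (ZIP7), which releases zinc from the endoplasmic reticulum, at 0.14 ± 0.12 with overlapping arrays (adjusted p = 0.778).

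Genes that buffer zinc lay beside these values. Of 3 kept genes of this list, Mt1 and Mt3, metallothioneins that bind zinc and copper, fell after 24 h of strain by 1.55 ± 0.30 (adjusted p = 0.0233) and 0.74 ± 0.15 (adjusted p = 0.0250) on the log2 scale, where 1.37% of kept probes were called lower. The summed intensity of the list was 11000 to 13200 in the unstrained and 2750 to 6250 in the strained arrays at 24 h. This sum is almost wholly the signal of the Mt1 probe (mean intensity 6530, with 78.5 for Mt3), so it repeats the fall of Mt1. Slc30a1, the zinc exporter of the plasma membrane, was below the brightness threshold, with 56.4 ± 3.03 and 55.3 ± 4.81 (SD, n = 3 each).

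Slc11a1, a metal transporter of macrophage phagosomes, was the member nearest to a call at 24 h after Slc41a2. It read 113, 113 and 128 in unstrained and 70.7, 97.7 and 74.6 in strained fascicles, without overlap, a difference of -0.56 ± 0.15 (adjusted p = 0.0775). Of the macrophage markers, 9 of 9 had a negative difference at 24 h, with a median of -0.48, and 1 of them passed, Cd53, which fell by 0.63 (adjusted p = 0.0290). Of the 11258 kept probes 5294 had a negative difference and 1.37% were called lower. The summed intensity of the 9 markers was 2320 to 3180 in unstrained and 1410 to 2030 in strained arrays at 24 h. At 1 h of strain 8 of the 9 markers already had a negative difference, with a median of -0.49, and 0 passed. Of the 11258 kept probes 5670 had a negative difference at 1 h. The markers' summed intensity at 1 h was 2980 to 5360 in unstrained and 2000 to 3540 in strained arrays, which overlap. Their part in the result of Slc11a1 was not tested. Slc40a1 (ferroportin), the iron exporter, stood at -0.30 ± 0.14, without overlap between the groups (adjusted p = 0.395).

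**Figure D2:**
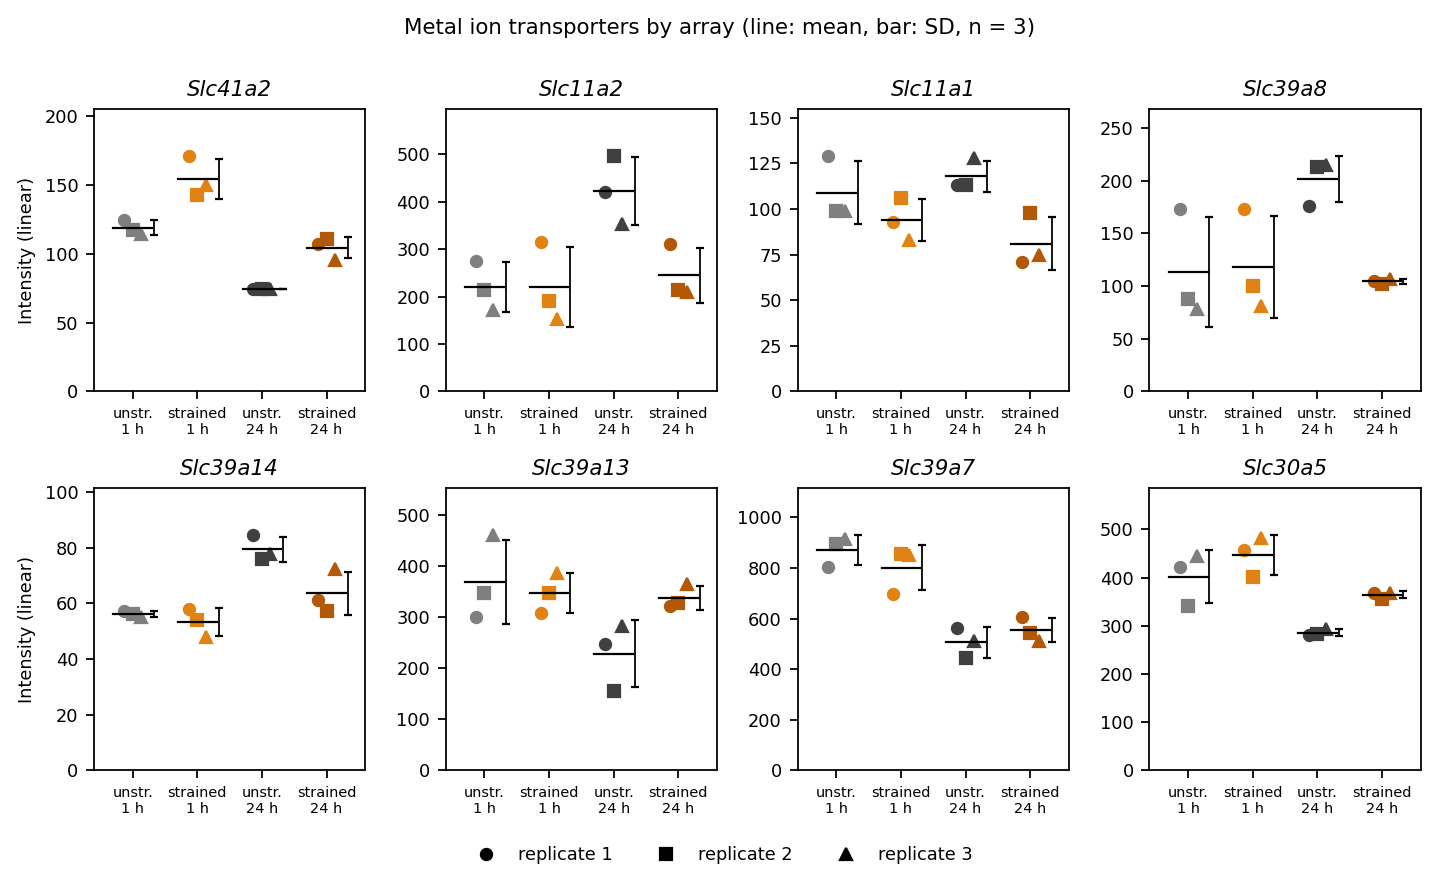
Linear intensity (y axis, from 0) of 8 metal ion transporters in each array, by group (x axis) and replicate (marker), with the mean as a line and the SD as a bar, n = 3. The strained arrays of Slc41a2 lie above the unstrained arrays at each time, the importers Slc11a2, Slc39a8 and Slc39a14 have their highest group mean in unstrained fascicles at 24 h, and Slc39a7 falls with time in both.

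Amino acid carriers showed no call for strain at either time. Slc1a5, which exchanges glutamine and other neutral amino acids, read 223, 234 and 246 in unstrained and 402, 328 and 285 in strained fascicles at 24 h, a difference of 0.52 ± 0.22 without overlap (adjusted p = 0.326). Slc7a5 (LAT1), the exchanger of large neutral amino acids, had 94.5, 99.0 and 98.9 against 124, 152 and 115, a difference of 0.41 ± 0.21 (adjusted p = 0.465). Its heavy chain partner Slc3a2 stood at -0.31 ± 0.27 with overlapping arrays. Slc38a2, a glutamine and alanine carrier, read 1863, 1591 and 2098 in unstrained and 1528, 1437 and 1422 in strained fascicles, a difference of -0.33 ± 0.19 (adjusted p = 0.553). Slc7a11, the cystine carrier, was flat at 0.03 ± 0.14 (95% interval -0.26 to 0.33). The family's largest difference at 24 h was that of Slc1a3, at -0.69, which was not called. It read 264.5, 172 and 447 in unstrained and 202, 126 and 189 in strained fascicles, with overlap. The change of its strain effect from 1 h to 24 h, -1.06, was the largest of any member and was not called either. The family's median at 24 h was -0.01, with 8 values above 0 and 11 below.

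None of the 22 mitochondrial carriers passed after 24 h of strain, with 12 values above 0, 10 below and a median of 0.02. Slc25a4, an ADP/ATP exchanger, read 1199, 1121 and 1070 in unstrained and 1282, 1567 and 1473 in strained fascicles, a difference of 0.35 ± 0.11 (adjusted p = 0.155). Its paralog Slc25a5 had 1109, 692 and 896 against 1268, 1241 and 1183, a difference of 0.48 ± 0.18 (adjusted p = 0.235). Slc25a3, the phosphate carrier, stood at 0.27 ± 0.16 and Slc25a24, a carrier of ATP-magnesium and phosphate, at 0.31 ± 0.11. The strained arrays lay above the unstrained arrays in these 4 genes. Slc25a25, with the same substrates as Slc25a24, read 94.0, 91.8 and 95.6 against 114.9, 99.9 and 88.3, with overlap, a difference of 0.10 ± 0.11 (adjusted p = 0.854). Slc25a16 was lower in every strained array, at -0.25 ± 0.10 (adjusted p = 0.298). At 1 h the differences of Slc25a4, Slc25a5 and Slc25a3 were -0.06, 0.02 and 0.08.

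Of the glucose family, 3 of 10 genes passed the threshold, and none changed in any comparison. Slc2a5, a fructose carrier, differed with strain by 0.08 ± 0.10 at 1 h and 0.16 ± 0.10 at 24 h. Slc2a6 differed by -0.11 ± 0.16 and -0.09 ± 0.16, and Slc2a8, an intracellular carrier, by 0.11 ± 0.11 and -0.01 ± 0.11. All 3 lay near the array median, with group means between 53.1 and 80.0. The common glucose transporter Slc2a1 was below the threshold at 53.6 ± 1.12, 52.5 ± 8.52, 51.5 ± 4.65 and 47.8 ± 1.60 (SD, n = 3 each) in unstrained 1 h, strained 1 h, unstrained 24 h and strained 24 h fascicles.

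No lactate or phosphate carrier was called for strain. Slc16a1 (MCT1), a lactate and pyruvate transporter, read 1478, 1545 and 1111 in unstrained and 1130, 816 and 586 in strained fascicles at 24 h, a difference of -0.74 ± 0.31 (adjusted p = 0.310). The highest strained array lay just above the lowest unstrained array. Each strained array lay below the unstrained array of its replicate number, though these numbers were not taken as pairs at 24 h. At 1 h it read 1109, 722 and 566 in unstrained and 1210, 750 and 575 in strained fascicles, with replicate 1 highest and replicate 3 lowest in both. Slc16a3 (MCT4), a lactate exporter, differed by -0.69 ± 0.71. Slc20a1 (PiT1), the phosphate importer, was close to equal at 1 h (-0.03 ± 0.17) and 24 h (-0.05 ± 0.17). Slc20a2 (PiT2) stood at 0.51 at 24 h with 147, 286 and 136 in the strained arrays, where replicate 2 is far above the others. Slc26a2, the sulfate transporter used for chondroitin sulfation, was below the threshold, and its differences were 0.06 and -0.06.

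Far more transporters differed between 1 h and 24 h than between strained and unstrained fascicles. In strained fascicles this culture time comparison also holds a longer strain. The arrays of the 2 times are separate samples. The labels do not say whether these were prepared alike, and such a difference cannot be told apart from time. In unstrained fascicles 10 members rose and 18 fell between 1 h and 24 h, 28 of 167 or 16.8%, against 17.2% of all kept probes. In strained fascicles 9 rose and 22 fell, 31 or 18.6%, against 20.7%. Arrays of the 2 times did not overlap for 23 members that stood higher and 31 lower in unstrained fascicles (background 18.2% and 15.5%), and for 22 and 27 in strained fascicles (background 19.4% and 15.0%). By direction, the background was 9.83% higher and 7.42% lower in unstrained, and 12.2% higher and 8.52% lower in strained fascicles. The median change of the members was 0.00 in unstrained and -0.01 in strained fascicles. The members are thus called about as often as all probes, and 42 of them were called in at least 1 comparison. Among the 81 members in the upper 25% of all probes, 25 were called in unstrained (30.9%, background 31.8%) and 26 in strained fascicles (32.1%, background 38.8%).

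Of these, 17 members were called in both culture time comparisons, 4 higher and 13 lower, which is 60.7% of the unstrained and 54.8% of the strained calls. For all kept probes the shares were 66.4% and 55.3%. Another 11 were called in unstrained and 14 in strained fascicles alone. The difference between these time effects equals the difference between the strain effects, which no member passed, so these 25 are not shown to differ between strained and unstrained fascicles. Leaving out each array in turn, 12 of the 28 and 14 of the 31 members were called in every fit.

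The background left in the values bears on the size of these changes. With the 1st percentile of each array subtracted, every one of the 60 calls of members (28 and 31 for time and 1 for strain) kept its direction and had a larger log2 fold change, by 1.04 to 3.69 times, and 31 of them by over 1.5 times. The sizes given are therefore those on values that keep their background. With this subtraction 7 of the 28 calls in unstrained fascicles were lost (Slc12a4, Slc25a38, Slc25a39, Slc30a5, Slc35f5, Slc39a13 and Slc39a8, adjusted p from 0.0520 to 0.0725). Of the 31 in strained fascicles 7 were lost as well (Slc25a39, Slc29a1, Slc35e4, Slc39a7, Slc49a4, Slc4a4 and Slc66a2, adjusted p of at most 0.0874). For 4 calls, those of Slc17a1 in both comparisons, Slc39a14 in unstrained and Slc27a6 in strained fascicles, the group with the lower level had a mean below the brightness threshold, so these genes passed it through the time at which they were higher.

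**Figure D3:**
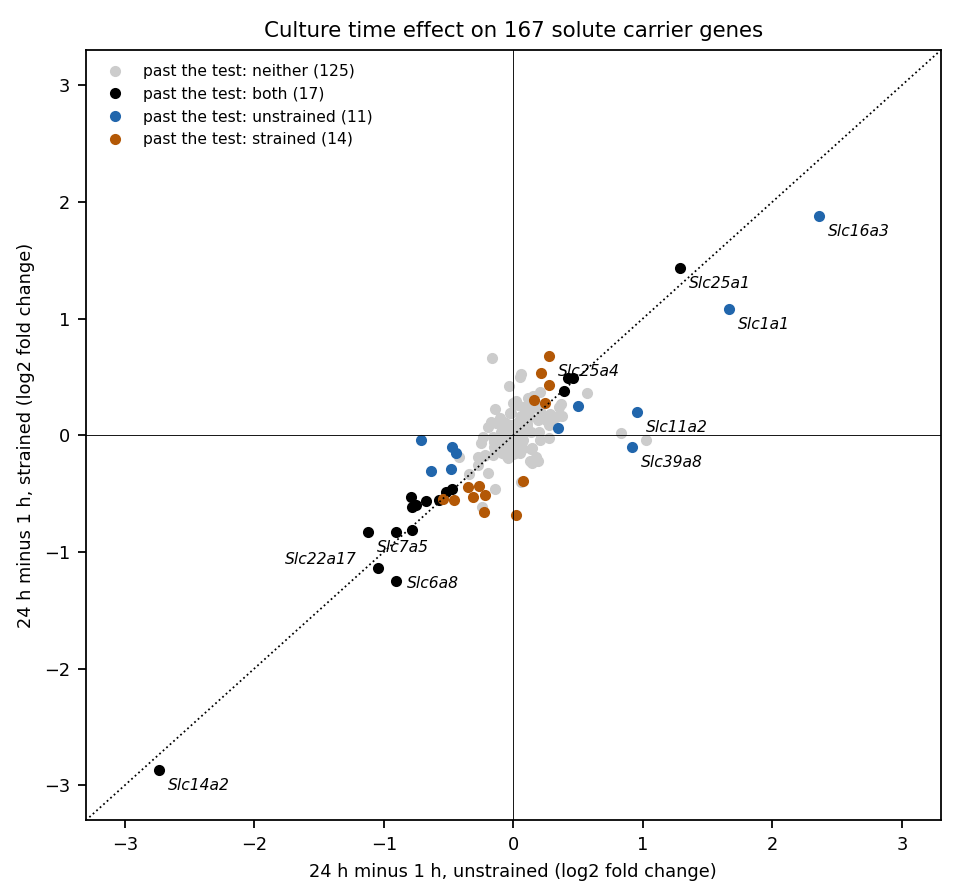
Log2 fold change from 1 h to 24 h in unstrained (x axis) and in strained fascicles (y axis) for the 167 genes, coloured by where they passed the test, with the dotted line of equal change. Slc14a2 lies at -2.73 and -2.87 and Slc25a1 at 1.29 and 1.44, while Slc39a8 and Slc11a2 lie to the right of the line, at 0.92 and 0.95 in unstrained against -0.10 and 0.20 in strained fascicles.

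The largest change of any member was a fall of Slc14a2, a urea transporter known from the kidney. It read 359.8, 397 and 636 at 1 h and 61.7, 73.9 and 68.0 at 24 h in unstrained fascicles, 6.64-fold lower, at a log2 fold change of -2.73 ± 0.20 (adjusted p = 6.64e-06). Strained fascicles went from 462, 434 and 608 to 76.7, 64.7 and 63.1, 7.30-fold lower, at -2.87 ± 0.20 (adjusted p = 1.21e-05). All 24 h arrays lay near the array median, in values that keep their background. Both ratios are thus lower bounds with regard to that background, though not to the spread between arrays. With the 1st percentile of each array subtracted, the log2 fold changes were -4.00 and -4.15. A further, dimmer probe of the gene gave smaller changes of -0.94 ± 0.31 (adjusted p = 0.0546) and -1.17 ± 0.31 (adjusted p = 0.0173). Slc14a1, the other urea transporter, stood at -0.05 and -0.18.

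Slc7a5 and Slc38a1 were the amino acid carriers that fell with time in both groups. Slc7a5 read 245, 168 and 232 at 1 h and 94.5, 99.0 and 98.9 at 24 h in unstrained fascicles, 2.18-fold lower, at -1.12 ± 0.21 (adjusted p = 0.00323). In the strained groups it went from 279.6, 158 and 277 to 124, 152 and 115, without overlap, at -0.83 ± 0.21 (adjusted p = 0.0142), a call lost in 3 of the 12 fits that each omit an array (adjusted p = 0.0597 without strained replicate 3 at 1 h). Slc38a1, a glutamine carrier, went from 214, 127 and 129 to 77.3, 80.8 and 85.1 in unstrained fascicles, at -0.91 ± 0.17 (adjusted p = 0.00399). Under strain it went from 191, 144 and 176 to 91.0, 95.6 and 98.5, at -0.83 ± 0.17 (adjusted p = 0.00504). The arrays of the 2 times were apart in each case.

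Slc7a1 (CAT1), the arginine and lysine carrier, fell in strained fascicles, from 98.5, 75.5 and 95.9 to 62.9, 63.3 and 59.3, at -0.53 ± 0.10 (adjusted p = 0.00357), and stood at -0.31 ± 0.10 in unstrained fascicles (adjusted p = 0.0627). Slc1a1 (EAAT3), a carrier of glutamate, aspartate and cysteine, went the other way. It read 170.1, 80.6 and 78.3 at 1 h and 306, 540.4 and 206 at 24 h in unstrained fascicles, 3.17-fold higher, at 1.66 ± 0.43 (adjusted p = 0.0207), a call that held in 8 of the 12 fits that each omit an array (adjusted p = 0.0849 without unstrained replicate 2 at 24 h). Under strain it stood at 1.08 ± 0.43 (adjusted p = 0.105). In the whole family 3 of 19 members were called in each comparison, 2 lower and 1 higher in unstrained and 3 lower in strained fascicles. This share of 15.8% in each stands against 17.2% and 20.7% of all kept probes.

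Genes of the amino acid response, which the transcription factor Atf4 drives when amino acids are short, were set beside these carriers. Of 15 kept, 5 fell and 1 rose with time in unstrained fascicles, where 7.42% of kept probes were called lower and 9.83% higher. In strained fascicles 4 fell, against 8.52% of kept probes. Atf4 itself fell by 0.98 ± 0.21 and 1.41 ± 0.21 on the log2 scale (adjusted p = 0.00659 and 6.05e-04). The tRNA synthetase gene Aars1 fell by 0.70 and 0.59, and the serine synthesis gene Psph fell by 0.67 in unstrained fascicles. The gene that rose was Ddit4, by 1.02 ± 0.30 in unstrained fascicles (adjusted p = 0.0343), and it stood at -0.11 ± 0.30 in strained fascicles. Trib3, an Atf4 target, fell after 24 h of strain by 0.81 ± 0.17 (adjusted p = 0.0357). It was the only 1 of the 15 called there, where 1.37% of kept probes were called lower. At 24 h of strain 8 of the 15 stood above 0 and 7 below, with a median of 0.04. For culture time the median over the list was -0.34 in unstrained and -0.23 in strained fascicles, against medians of 0.00 and 0.01 over all kept probes.

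Among the 22 mitochondrial carriers 3 rose and 1 fell in each culture time comparison, 18.2% against 17.2% of kept probes in unstrained and 20.7% in strained fascicles. Slc25a1, which exports citrate to the cytosol, read 159.9, 189 and 185 at 1 h and 424, 475 and 405 at 24 h in unstrained fascicles, 2.44-fold higher, at 1.29 ± 0.13 (adjusted p = 7.32e-05). In the strained groups Slc25a1 went from 142, 180.1 and 142 to 363, 424 and 468, 2.71-fold higher, at 1.44 ± 0.13 (adjusted p = 3.52e-05). The 24 h arrays were far above the 1 h arrays, and the call held whichever array was left out. Slc25a39, which imports glutathione into mitochondria, rose by 0.46 ± 0.14 and 0.49 ± 0.14 in the 2 comparisons. Its adjusted p was 0.133 when unstrained replicate 1 at 1 h was omitted and 0.0953 when strained replicate 2 at 24 h was.

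Slc25a4 rose in strained fascicles, from 791, 1026 and 882 to 1282, 1567 and 1473, at 0.68 ± 0.11 (adjusted p = 0.00112), and stood at 0.27 ± 0.11 in unstrained fascicles (adjusted p = 0.121). Slc25a16 rose by 0.34 ± 0.10 in unstrained fascicles (adjusted p = 0.0380), a call held in 5 of the 12 leave-one-out fits (adjusted p = 0.137 without unstrained replicate 1 at 24 h). Slc25a38, a glycine carrier needed for haem synthesis, fell by 0.63 ± 0.18 in unstrained fascicles, which held in 7 of 12 (adjusted p = 0.0966 without unstrained replicate 1 at 1 h). Slc25a25 fell by 0.43 ± 0.11 in strained fascicles, which held in 9 of 12 (adjusted p = 0.0731 without strained replicate 3 at 24 h). Of 12 kept partner genes of these carriers, 6 rose in unstrained fascicles, and 7 rose and 1 fell in strained fascicles, where the background was 9.83% higher in unstrained, and 12.2% higher and 8.52% lower in strained fascicles. They include Mpc1, a subunit of the pyruvate carrier (0.80 and 0.63), the porin gene Vdac3 (0.83 and 0.95), Mdh2, the mitochondrial malate dehydrogenase (0.49 and 1.10), and Got2 (0.68 and 1.12).

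The lactate exporter Slc16a3 had the largest rise of any member, on a wide spread. It read 99.6, 72.9 and 65.0 at 1 h and 499, 1045 and 123 at 24 h in unstrained fascicles. The estimate was 5.14-fold higher, at 2.36 ± 0.71 (adjusted p = 0.0381). The 1 h arrays lie near the background, which makes the ratio smaller, but with this spread the estimate is no lower bound. With the 1st percentile subtracted the log2 fold change was 3.27. In strained fascicles it went from 67.7, 79.4 and 58.0 to 131, 741 and 159, at 1.88 ± 0.71 (adjusted p = 0.0849). Replicate 2 was the highest array at 24 h in both groups. The call in unstrained fascicles was lost in 5 of the 12 fits that each omit an array, and its adjusted p was 0.149 without unstrained replicate 2 at 24 h. Slc16a1 stood at 0.83 ± 0.31 in unstrained (adjusted p = 0.0926) and 0.02 ± 0.31 in strained fascicles.

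Genes for glucose use went both ways. Of 13 kept, 5 rose and 3 fell in unstrained fascicles, against 9.83% of kept probes called higher and 7.42% lower, and 6 rose and 1 fell in strained fascicles, against 12.2% and 8.52%. Ldha, which makes lactate, rose by 1.13 ± 0.16 and 1.26 ± 0.16, Tpi1 by 1.90 ± 0.34 and 1.96 ± 0.34, and Pgk1 by 1.11 and 1.21, while Hk2, the hexokinase of the first step, fell by 1.02 and 0.84. Pfkp, a phosphofructokinase, and Txnip, an inhibitor of glucose uptake, fell by 0.60 and 1.02 in unstrained fascicles. Gpi, Pfkl, Pfkm, Aldoa and Pkm did not pass in unstrained fascicles, and of these Aldoa passed in strained fascicles (0.76, adjusted p = 0.0490). The 3 kept glucose transporters stood between -0.05 and 0.13 in unstrained and between -0.17 and 0.15 in strained fascicles.

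**Figure D4:**
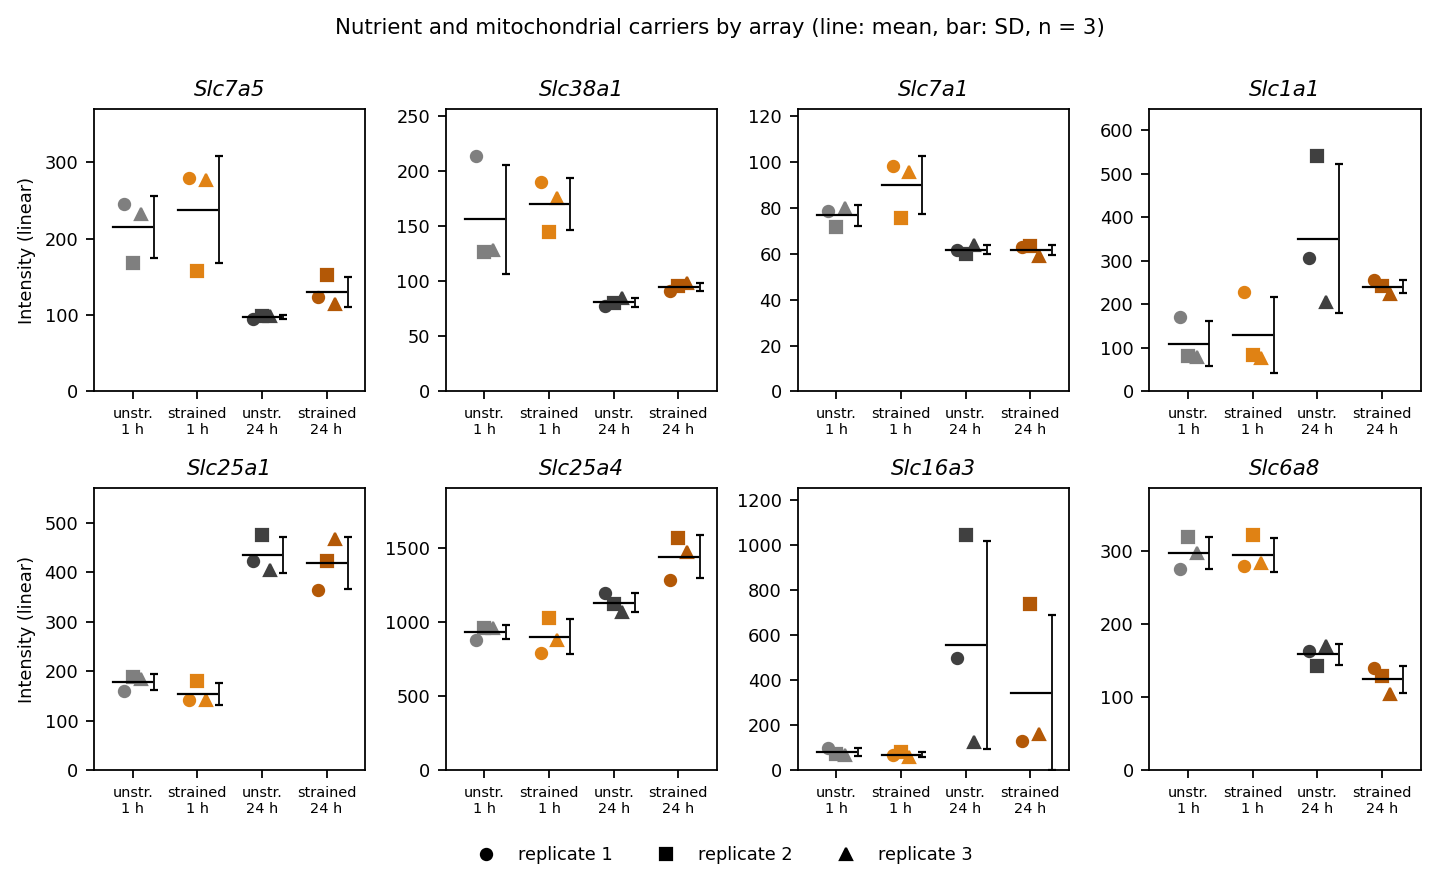
Linear intensity (y axis, from 0) of 8 nutrient and mitochondrial carriers in each array, by group (x axis) and replicate (marker), with the mean as a line and the SD as a bar, n = 3. Slc7a5, Slc38a1, Slc7a1 and Slc6a8 are lower at 24 h than at 1 h, Slc25a1 is higher in both groups, and Slc16a3 at 24 h runs from 123 to 1045 in unstrained fascicles.

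Of the 12 zinc carriers, 5 (41.7%) were called for culture time in unstrained fascicles, against 17.2% of kept probes, and 1 (8.33%) in strained fascicles, against 20.7%. Slc39a7 fell in both, from 806, 894 and 915 to 563, 443 and 509.7 in unstrained (-0.79 ± 0.12, adjusted p = 9.08e-04) and from 698, 856 and 850.3 to 606, 544 and 512 in strained fascicles (-0.53 ± 0.12, adjusted p = 0.00712). Slc30a5 fell from 421, 341 and 444 to 280.1, 283 and 294 in unstrained fascicles, at -0.48 ± 0.11 (adjusted p = 0.00909), and stood at -0.29 ± 0.11 in strained fascicles (adjusted p = 0.0794). Slc39a13 fell in unstrained fascicles from 299.5, 346 and 459.9 to 246, 155 and 282, at -0.71 ± 0.21 (adjusted p = 0.0322), and stood at -0.04 ± 0.21 in strained fascicles. That call held in 8 of the 12 leave-one-out fits, with an adjusted p of 0.124 without unstrained replicate 3 at 1 h. The arrays of the 2 times were apart where a gene was called.

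The importers Slc39a14, Slc39a8 and Slc11a2 rose in unstrained fascicles. Slc39a14 went from 57.1, 56.3 and 55.1 to 84.5, 75.9 and 77.8, at 0.50 ± 0.10 (adjusted p = 0.00684), and stood at 0.25 ± 0.10 in strained fascicles (adjusted p = 0.119). Its 1 h arrays were at the array median, so that the rise is a lower bound with regard to the background, and it was 1.40 with the 1st percentile subtracted. Slc39a8 rose by 0.92 ± 0.29 (adjusted p = 0.0486) and stood at -0.10 ± 0.29 in strained fascicles. That call held in 3 of the 12 fits that each omit an array, and its adjusted p was 0.176 without unstrained replicate 3 at 1 h. Slc11a2 rose from 275, 214 and 172 to 420.0, 496 and 353, at 0.95 ± 0.26 (adjusted p = 0.0247), and stood at 0.20 ± 0.26 in strained fascicles. That call held in 8 of 12 such fits, and its adjusted p was 0.0967 without unstrained replicate 3 at 1 h.

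Of the 9 carriers of iron, copper, magnesium and haem, 1 rose and 1 fell in unstrained fascicles (22.2%, background 17.2%) and 3 fell in strained fascicles (33.3%, background 20.7%, and 8.52% for lower calls). Slc41a2 fell by 0.67 ± 0.09 in unstrained and 0.56 ± 0.09 in strained fascicles (adjusted p = 5.86e-04 and 0.00122), and both calls held whichever array was left out. The order of its 4 groups was thus strained 1 h, unstrained 1 h, strained 24 h and unstrained 24 h, and no neighbouring groups in this order overlapped, though the strain step at 1 h did not pass the test. Slc40a1 fell in strained fascicles from 94.0, 116 and 76.1 to 60.8, 54.2 and 63.4, at -0.66 ± 0.14 (adjusted p = 0.00539), and stood at -0.23 ± 0.14 in unstrained fascicles. Slc49a4 fell by 0.55 ± 0.17 in strained fascicles (adjusted p = 0.0416) and stood at -0.54 ± 0.17 in unstrained fascicles (adjusted p = 0.0508), nearly the same size on the other side of the threshold. Its call held in 4 of the 12 leave-one-out fits, with an adjusted p of 0.159 without strained replicate 3 at 1 h.

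Slc6a8, Slc22a17 and Slc20a1 fell in both groups. Slc6a8, the creatine transporter, went from 276, 320.3 and 298 to 163, 143 and 170.4 in unstrained (-0.91 ± 0.12, adjusted p = 5.10e-04) and from 279.7, 322 and 284 to 141, 129 and 104 in strained fascicles (-1.25 ± 0.12, adjusted p = 5.75e-05). Slc22a17, the receptor of the siderophore-binding protein lipocalin 2, fell by 1.05 ± 0.14 and 1.14 ± 0.14. Slc20a1, the phosphate importer, went from 939, 650.0 and 681 to 432, 443 and 424 in unstrained fascicles (-0.79 ± 0.17, adjusted p = 0.00904) and fell by 0.81 ± 0.17 in strained fascicles. All 3 genes were called in both comparisons whichever array was left out. The phosphate group was formed by family name from Slc17, Slc20 and Slc37 genes. It therefore also holds carriers of other substrates, such as Slc17a5 and Slc17a9. Of its 7 members, 1 rose and 1 fell in unstrained (28.6%, background 17.2%), and 1 rose and 2 fell in strained fascicles (42.9%, background 20.7%).

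Nucleoside and Golgi carriers moved both ways. Slc28a2 fell by 0.78 ± 0.13 and 0.62 ± 0.13. Slc29a1 (ENT1), the equilibrative nucleoside transporter, fell in strained fascicles by 0.68 ± 0.22 (adjusted p = 0.0493) and stood at 0.02 ± 0.22 in unstrained fascicles. That fall was called in 4 of the 12 leave-one-out fits, with an adjusted p of 0.200 without strained replicate 2 at 24 h. Of 16 nucleotide sugar carriers, 1 rose and 2 fell in unstrained (18.8%, background 17.2%) and 3 rose and 1 fell in strained fascicles (25%, background 20.7%). Slc35b4, which brings UDP-xylose and UDP-N-acetylglucosamine into the Golgi, read 82.2, 80.4 and 84.1 at 1 h and 116, 105 and 110.2 at 24 h in unstrained fascicles, at 0.42 ± 0.11 (adjusted p = 0.0193), and rose by 0.49 ± 0.11 in strained fascicles (adjusted p = 0.00656). Slc35c1, the GDP-fucose transporter, rose by 0.43 ± 0.12 in strained fascicles, and Slc35e4, with no substrate named here, fell by 0.75 ± 0.19 and 0.60 ± 0.19. The call of Slc35b4 in unstrained fascicles held in 9 of 12 leave-one-out fits (adjusted p = 0.0778 without unstrained replicate 1 at 24 h) and that of Slc35c1 in 8 (0.0827 without strained replicate 3 at 1 h). For Slc35e4 the call in unstrained fascicles held in 10, with 0.0672 when unstrained replicate 1 at 24 h was omitted, and the call in strained fascicles in 4, with 0.144 when strained replicate 3 at 1 h was.

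Genes for sulfate activation and for making and sulfating glycosaminoglycan chains were set beside the Golgi carriers. Of 13 kept, 2 fell in unstrained fascicles, where 7.42% of kept probes were called lower. In strained fascicles 1 rose and 1 fell, against 12.2% higher and 8.52% lower. Ugp2, which makes UDP-glucose, fell by 0.68 ± 0.12 and 0.82 ± 0.12, Chpf, a chondroitin polymerising factor, fell by 0.73 in unstrained fascicles, and Xylt2, which starts the chains with xylose, rose by 0.44 in strained fascicles. The summed intensity of the list was 3430 to 3970 in unstrained 1 h and 2780 to 2900 in unstrained 24 h arrays, which do not overlap, and 3200 to 4030 and 2850 to 3220 in the strained arrays, which do.

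The remaining members called for time changed by less than 0.6 on values that keep their background. In both groups Slc66a2 fell by 0.52 and 0.48, Slc27a6, of the fatty acid transport family, fell by 0.48 and 0.46, and Slc17a1, a phosphate and urate carrier, rose by 0.39 and 0.38 from 1 h means of 50.1 and 48.9, below the array median, to 66.4 and 63.8. Slc7a6os, which is no transporter, fell by 0.57 and 0.56. In unstrained fascicles Slc12a4, a potassium-chloride cotransporter, fell by 0.48 and Slc35f5 by 0.44. In strained fascicles Slc17a9, the vesicular ATP carrier, fell by 0.55, Slc50a1 by 0.51, Slc4a4, a sodium bicarbonate cotransporter, by 0.44 and Slc27a3 by 0.40, while Slc10a3 rose by 0.54, Slc52a2, a riboflavin transporter, by 0.31 and Slc35e3 by 0.28. With the 1st percentile subtracted the changes were 1.45 and 1.41 for Slc17a1, -1.34 and -1.42 for Slc27a6, -1.24 for Slc17a9, -0.99 for Slc27a3 and -0.90 for Slc50a1. Of these calls, only that of Slc50a1 held whichever array was left out. The calls of Slc4a4, Slc52a2 and Slc35e3 held in 2 of the 12 fits each, with adjusted p values of 0.171 without strained replicate 1 at 1 h, and of 0.145 and 0.151 without strained replicate 2 at 24 h. Slc27a6 kept its call in 4 fits for unstrained fascicles, with 0.155 when unstrained replicate 1 at 24 h was omitted, and in 6 for strained fascicles, with 0.135 when strained replicate 2 at 24 h was. The call of Slc17a9 held in 7 (0.140 without strained replicate 3 at 1 h). The calls of the other genes of this group held in 8 to 11 of the 12.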

How the data were processed

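Each of 12 RNA samples was hybridised to 1 Illumina rat bead array. The values are the authors' deposited table of linear intensity for 22517 probes, already normalized between arrays, since all arrays share the same distribution of values. Which software did this is not stated in any label or header. A further deposited table names its 24 columns of per-sample values only by number and was not used, so detection p-values were not used either.

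Log2 intensities were tested with limma (version 3.58.1, R version 4.3.3) by a linear model with moderated variances, 8 residual and 4.08 prior degrees of freedom and a mean for each of 4 groups, on the 11258 probes in the upper 50% by mean, and 5 contrasts. Two-sided p-values were adjusted by Benjamini-Hochberg over all of these probes. The code was tested on simulated data. The number of arrays sets the precision, with a median standard error of 0.12 for a strain difference. Gene names come from the platform annotation, in which 13787 probes have 1 symbol. All 167 member symbols were checked against the current rat gene table (GRCr8), and 0 changed.

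At 1 h, arrays of the same replicate number deviated together, with correlations of 0.604, 0.537 and 0.521. The numbers were read as pairs there, but only in the alternative fit with a replicate block within each time. The main fit took no account of them. It gave the differences, standard errors and p-values at both times, except where a block is named. The members and gene lists were chosen with earlier results of these data known, so no list is independent evidence. Named genes followed a rule: called members up to 10 in a direction, the members of smallest p up to 3 where fewer than 3 passed, up to 3 of smallest p in each family, a set of 15 transporters of which 12 passed the threshold, the members at the threshold, and called genes of the pathway lists. Any further gene was picked with its values known. Alternatives covered the filter, background, normalization, variance model, array weights, samples in the fit, replicate blocks, probe choice and each array left out. Plots were made in Python 3.11.15 (matplotlib 3.10.9).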

Additional observations from a re-analysis of the deposited data

How the results depend on the processing

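The number of arrays and the background left in the values limit these results, above all for members near an intensity of 57.0. No alternative reversed the sign of a called member. For strain at 1 h, 0 members were called under every setting run, including the replicate block within each time, where the smallest adjusted p was 0.212. For strain at 24 h, where 1 member was called, the count was 0 with a variance trend and robust estimation, 2 with only the groups compared (Slc41a2 and Slc39a8), 4 with array weights (these and Slc39a14 and Slc11a1), 3 with the replicate block over all arrays (Slc41a2, Slc16a1 at an adjusted p of 0.0166, and Slc11a2) and 14 with the replicate block within each time (Slc16a1 at 0.0028 among them), and it ran from 0 to 2 when arrays were left out in turn. The replicate numbers at 24 h were not accepted as pairs, since same-numbered arrays correlated at 0.0387, 0.309 and 0.388. For the difference of the strain effects, 0 members were called except with the replicate block within each time. That block called 3 (Slc39a8 at 0.00296, Slc16a1 at 0.0328 and Slc1a3 at 0.0397), where it called 184 of all 11258 kept probes. For culture time in unstrained fascicles the count of 28 ran from 15 to 30 with arrays left out and was 21 to 34 otherwise. In strained fascicles the count of 31 ran from 16 to 30 with arrays left out and was 25 to 37 otherwise. The within-time block gives no culture time value. Of the values for named members under all alternatives, 1930 kept their direction and side of the threshold, 136 lost a call, 14 gained one and 43 moved in size. Over all kept probes, the 263 calls for strain at 24 h became 882 with the within-time replicate block, 558 with array weights and 82 with the 1st percentile subtracted. They became 378 with the replicate block over all arrays, 290 with only the groups compared and 208 with a variance trend and robust estimation. Where a cause is not given, the cause was not tested.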

Other observations

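Among the 125 solute carrier genes below the brightness threshold, a fit without any filter on dim probes called 1, Slc7a2, a carrier of cationic amino acids, and only for culture time in unstrained fascicles. Of all 22517 probes, that fit called 1793 for culture time in unstrained and 2170 in strained fascicles. The mean intensity of Slc7a2 in unstrained fascicles was 47.5 ± 1.51 at 1 h and 69.4 ± 12.3 at 24 h (SD, n = 3 each), so that the log2 fold change was 0.53 (adjusted p = 0.00846). In strained fascicles it stood at 52.1 ± 4.25 and 57.3 ± 1.47 (SD, n = 3 each), a difference of 0.14 (adjusted p = 0.600). The related carrier Slc7a1 lay lower at 24 h in both groups. The genes of Slc25a30 and Slc14a2 were the only members with several kept probes, and the further probes of Slc25a30 were not called in any comparison, with differences from -0.16 to 0.24.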
